A study of Mus musculus with 2 samples.

Results

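RNA levels of 10 genes of inhibitory (Gi/o) G protein signalling were read in laser-captured mouse Purkinje cells, the output neurons of the cerebellar cortex. The genes were taken by symbol from the 43346 genes in the deposited tables. They are the gamma subunit gene Gng13, the beta subunit genes Gnb1 and Gnb5, the alpha subunit genes Gnao1, Gnai1 and Gnai2, the Gi/o-binding regulator gene Pcp2, and the regulator genes Rgs8, Rgs7 and Rgs7bp. The study holds a single group, 2 pools of 30 Purkinje cells cut from tissue by laser, with no other treatment or genotype to set them against. All cells were labelled as adult male, 14 months of age, of strain B6CASTF1/J, the first-generation cross of C57BL/6 and a Castaneus strain. The pools are called pool 1 and pool 2, after the replicate numbers in the labels. Both carry 1 donor identifier, and the labels leave unsaid whether the 2 pools came from separate animals, so the standard deviation (SD) between pools may be technical. Total RNA longer than 200 bases was amplified with a SMARTer Ultra Low kit, which makes cDNA from a few cells, and spike-in RNA was added.

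The tables give expected counts, estimated from the reads of a gene, and TPM, a level per transcript length scaled to the same total in each library. There were 31437230 expected counts on genes in pool 1 and 28591242 in pool 2, so a count of 0 allows a share of up to 9.54e-06% of counts in pool 1 and 1.05e-05% in pool 2. All 9 Purkinje cell markers reached 1 TPM in both pools, with a summed TPM of 42517 in pool 1 and 38280 in pool 2. Of 12 Bergmann glia and astrocyte markers 11 were detected in both pools. All 11 were higher in pool 2, as were 6132 of the 8958 genes that reached 1 TPM in either pool. The 12 markers summed to 2839 TPM in pool 1 and 4843 TPM in pool 2. Red blood cell markers summed to 2453 TPM in pool 1 and 16.3 TPM in pool 2. Markers of granule cells, inhibitory interneurons, oligodendrocytes, microglia and endothelial cells summed to between 3.89 and 82.0 per list and pool. No marker on any of the 8 lists was at 0 counts in both pools. In pooled cells, fewer cells of a type and less RNA per cell cannot be told apart.

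A G protein is a complex of an alpha, a beta and a gamma subunit. A receptor makes the alpha subunit exchange GDP for GTP, after which alpha and the beta-gamma pair act on separate effectors. Gi/o alpha subunits lower adenylyl cyclase activity, and their beta-gamma pairs open inwardly rectifying potassium channels and inhibit calcium channels. RGS proteins speed the hydrolysis of GTP on alpha and so end the signal. Pcp2, also called L7, is a small protein of Purkinje cells and retinal bipolar cells that binds GDP-loaded Gi/o alpha subunits.

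Gng13 and Pcp2 have short transcripts with several start sites, and their sequences are shown. The short length bears on the TPM levels below, while a link of the start sites to the levels was not tested. Gng13 (ENSMUSG00000025739.9) lies at chr17:25717171-25719406 on the plus strand of build mm10, and Pcp2 (ENSMUSG00000004630.14) at chr8:3623371-3625545 on the minus strand. Both Gng13 transcripts hold the same open reading frame of 204 bases, printed with its start and stop codons in capitals. The reading frame of the leading Pcp2 transcript, Pcp2-203, has 363 bases. Its first 150 bases are printed, and capitals mark where the reading frame of Pcp2-201 and Pcp2-205 begins, which has 300 bases and lacks the first 63. Both were read from GENCODE M21 transcripts of the same identifiers.
Gng13 coding sequence: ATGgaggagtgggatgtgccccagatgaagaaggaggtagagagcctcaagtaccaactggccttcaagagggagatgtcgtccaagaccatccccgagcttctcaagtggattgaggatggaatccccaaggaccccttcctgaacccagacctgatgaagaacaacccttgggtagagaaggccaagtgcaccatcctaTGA
Pcp2-203 coding sequence, first 150 bases: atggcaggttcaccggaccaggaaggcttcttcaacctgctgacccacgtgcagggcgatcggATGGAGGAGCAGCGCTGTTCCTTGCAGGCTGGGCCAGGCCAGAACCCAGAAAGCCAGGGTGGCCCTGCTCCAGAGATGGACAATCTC

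RefSeq promoter windows on build GRCm38.p6, from 250 bases before to 50 bases after a start site, matched 9 of the 10 symbols, all but Gnai2. Gng13 has 2 such windows and Pcp2 has 4. The windows nearest to both Gng13 transcripts and to the first exons of Pcp2-204 and Pcp2-203 are printed, whose RefSeq starts lie 0 to 13 bases from those of the transcripts. Capitals in the Gng13 windows mark GGGCGG, the core of a GC box, on either strand. Capitals in the Pcp2 windows mark AGGTCA, a core sequence of nuclear receptor sites, on either strand.
Gng13-202 start, chr17:25716922-25717221, plus strand: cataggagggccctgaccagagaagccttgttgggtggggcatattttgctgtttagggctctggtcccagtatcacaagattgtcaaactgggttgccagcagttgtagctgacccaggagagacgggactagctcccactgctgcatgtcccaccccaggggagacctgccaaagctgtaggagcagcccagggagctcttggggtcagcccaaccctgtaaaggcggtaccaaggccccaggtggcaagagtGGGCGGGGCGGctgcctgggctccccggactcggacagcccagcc
Gng13-201 start, chr17:25717278-25717577, plus strand: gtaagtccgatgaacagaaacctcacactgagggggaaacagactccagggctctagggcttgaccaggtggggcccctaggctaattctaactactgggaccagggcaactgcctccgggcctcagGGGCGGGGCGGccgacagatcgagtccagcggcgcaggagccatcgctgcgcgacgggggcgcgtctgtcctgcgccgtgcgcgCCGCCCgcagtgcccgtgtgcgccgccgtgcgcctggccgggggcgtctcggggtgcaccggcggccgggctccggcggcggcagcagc
Pcp2-204 start, chr8:3625498-3625797, minus strand: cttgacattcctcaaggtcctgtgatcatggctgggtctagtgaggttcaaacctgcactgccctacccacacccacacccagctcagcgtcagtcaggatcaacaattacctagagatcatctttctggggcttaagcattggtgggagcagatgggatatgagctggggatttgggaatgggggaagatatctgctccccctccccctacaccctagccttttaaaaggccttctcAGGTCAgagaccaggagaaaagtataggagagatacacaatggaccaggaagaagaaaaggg
Pcp2-203 start, chr8:3624987-3625286, minus strand: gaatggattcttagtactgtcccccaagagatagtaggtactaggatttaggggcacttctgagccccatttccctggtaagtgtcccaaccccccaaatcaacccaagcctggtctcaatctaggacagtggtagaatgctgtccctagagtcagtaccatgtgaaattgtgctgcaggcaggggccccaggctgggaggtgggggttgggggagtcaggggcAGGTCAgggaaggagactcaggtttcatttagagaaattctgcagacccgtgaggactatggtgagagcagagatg

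The window at the Gng13-201 start held 34 CG pairs in 300 bases with 72.0% G or C, and the window at the Gng13-202 start held 6 CG pairs with 62.0%. The median over all 32851 windows was 7 CG pairs and 52.7% G or C. GGGCGG occurred 3 times in the Gng13-201 window and 2 times in the Gng13-202 window, counting neighbouring matches that share a base, and 35.7% of all windows held it. Each printed Pcp2 window held 1 CG pair and 1 AGGTCA, which 16.3% of all windows held. TATAAA, the core of a TATA box, was searched on both strands too: it was in neither Gng13 window, in none of the printed Pcp2 windows, and in 13.6% of all windows. The window at the Pcp2-201 start, not printed, held 1 TATAAA and 0 AGGTCA. Such a match describes letters in a window and is no evidence of binding.

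Gng13 and Pcp2 stood far above the other genes of the set in both pools, and the next gene, Gnb1, was 89.1 times lower than Pcp2 in mean TPM. Of the 10 genes, 9 reached 1 TPM in both pools, against 30.3% of the 21474 protein-coding genes, and Gnb5 reached it in pool 1 alone. The order by mean TPM was Gng13, Pcp2, Gnb1, Rgs8, Gnao1, Rgs7bp, Gnai1, Rgs7, Gnai2 and Gnb5. Neighbours in that order did not overlap between pools and had means further apart than the sum of their SDs, except Rgs8 and Gnao1, whose means lay 10.7 TPM apart with SDs summing to 25.3.

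**Figure D1:**
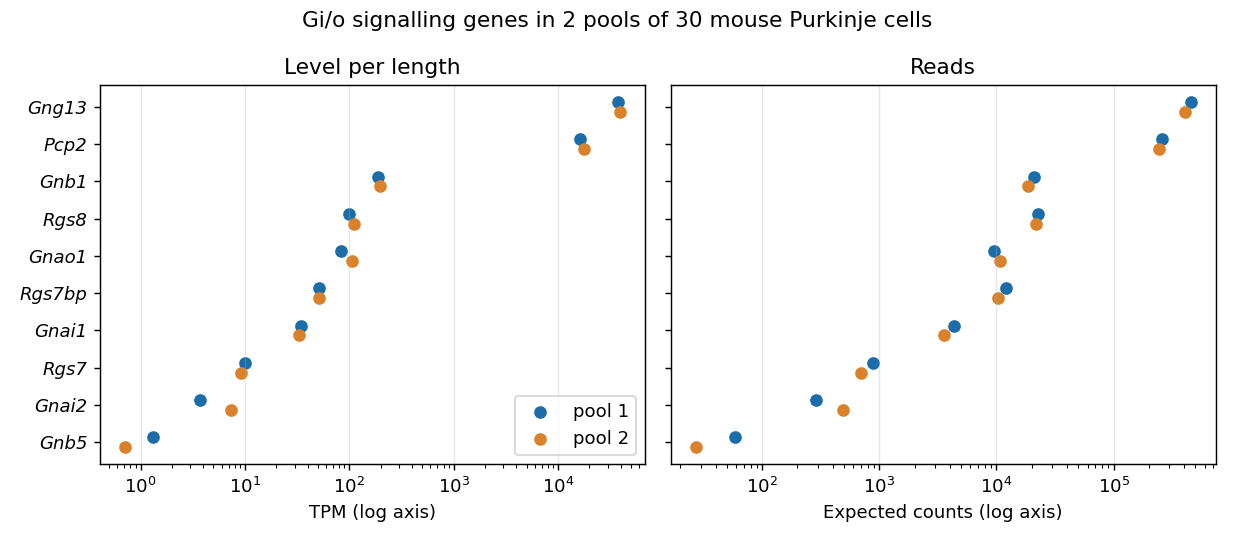
Levels of the 10 genes in TPM (left) and in expected counts (right), both on log axes, with 1 point per pool. Gng13 lies at 37575 TPM in pool 1 and 39449 TPM in pool 2, and Gnb5 at 1.33 TPM in pool 1 and 0.71 TPM in pool 2. On the count axis Rgs8 lies above Gnb1 in both pools, the reverse of their order in TPM.

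Gng13 encodes a gamma subunit first described in taste receptor cells and also known from retina and brain. Its level was 37575 TPM in pool 1 and 39449 TPM in pool 2 (mean 38512 ± 1326, SD, n = 2). It ranked 1 among nuclear protein-coding genes in both pools and held 3.76% of all TPM in pool 1 and 3.94% in pool 2. In reads it took 455823 counts in pool 1, or 1.45% of counts (exact 95% binomial interval 1.446 to 1.454), and 409338 counts in pool 2, or 1.432% (1.427 to 1.436). These intervals and those below cover counting error only. The share of TPM was larger than the share of reads, and the mean transcript length of Gng13 was only 398 bases in pool 1 and 396 bases in pool 2. The next genes by mean TPM were Pcp4, a calmodulin-binding peptide gene, at 26704 TPM in pool 1 and 24370 TPM in pool 2, and the actin gene Actb at 16767 TPM in pool 1 and 20444 TPM in pool 2. Both pools of Gng13 lay above both pools of either gene.

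Among the 12 gamma subunit genes, Gng13 made up nearly all the RNA. It held 99.6% of their summed TPM in pool 1 and 99.2% in pool 2 (99.4 ± 0.272, SD, n = 2). In reads, which do not raise short transcripts, it held 98.69% in pool 1 (exact 95% binomial interval 98.66 to 98.73) and 98.09% in pool 2 (98.05 to 98.13). Gng5, a gamma gene active in many tissues, followed at 81.95 TPM in pool 1 and 233.69 TPM in pool 2. Gng3, a neuronal gamma gene, had 48.07 TPM in pool 1 and 40.76 TPM in pool 2. Gng11 had 10.72 TPM in pool 1 and 23.50 TPM in pool 2, and Gng10 had 11.04 TPM in pool 1 and 13.87 TPM in pool 2. In all, 6 of the 12 gamma genes reached a TPM of 1 in both pools, against 30.3% of all protein-coding genes, and 2 in pool 2 alone. Gng7, Gng8, Gngt1 and Gngt2 stayed under a TPM of 1 in both, and the last 3 of these had 0 counts in both pools.

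Of the 8 gamma genes that reached 1 TPM in either pool, 2 differed by more than 2-fold in TPM + 1. Among all detected genes 10.3% did, with 8.22% higher in pool 2. The 2 gamma genes were Gng5 and Gng11, with log2 ratios (pool 1 over pool 2) of -1.50 for Gng5 and -1.06 for Gng11. Both were higher in pool 2, where the Bergmann glia and astrocyte markers were also higher, and the part of glial cells in this was not tested. The level of Gng5 has a further limit, since 30.15% of the 50-base windows of Gng5-201, its leading transcript, occur in transcripts of other genes as well. For Gng10 that percent was 87.04, most of it shared with Gm20503 on the same strand. For Gng3 it was 21.89, shared with Bscl2 on the opposite strand, and the sources used here do not state strand.

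**Figure D2:**
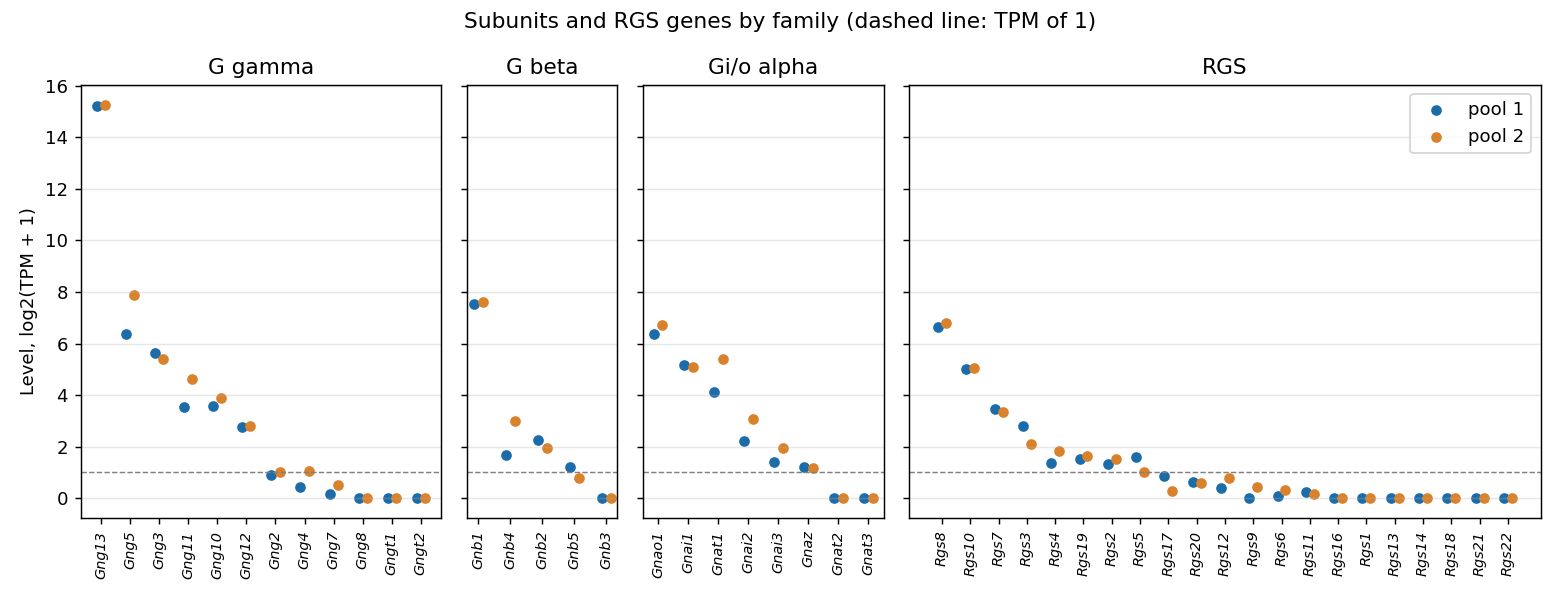
Levels of the gamma, beta, Gi/o alpha and RGS genes on a log2(TPM + 1) axis, 1 point per pool, ordered within each family by mean TPM. Gng13 sits above 15 on this axis in both pools, while no gene of the other families reaches 8; the dashed line marks a TPM of 1.

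The beta subunit RNA was mostly Gnb1, a beta gene found in most cells. Gnb1 (ENSMUSG00000029064.11, chr4:155491361-155559269) had 186.70 TPM in pool 1 and 194.93 TPM in pool 2 (mean 191 ± 5.82, SD, n = 2), from 20746 and 18666 counts. It held 96.2% of the summed TPM of the 5 beta genes in pool 1 and 94.9% in pool 2. Gnb5 encodes the divergent beta subunit that pairs with RGS proteins of the R7 group in place of a gamma subunit. Gnb5 (ENSMUSG00000032192.8, chr9:75306288-75345876) had 1.33 TPM in pool 1 and 0.71 TPM in pool 2, from 59 counts in pool 1 and 27 in pool 2. Its share of counts was 0.000188% in pool 1 (exact 95% binomial interval 0.000143 to 0.000242) and 0.000094% in pool 2 (0.000062 to 0.000137), so those intervals do not overlap. The other beta genes were low, and Gnb3, a beta gene of retina and taste cells, was under a TPM of 1 with 0 counts in both pools.

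The level of Gnb5 has a limit in the annotation. The deposited tables hold 1 Gnb5 transcript of 1188 bases, of which 1185 are coding, while GENCODE M21 lists 8, the longest coding one with 2105 bases. Reads from untranslated sequence of Gnb5 could therefore not be counted on it, and the effect on its level was not tested. Lengths differed for other genes as well. The longest deposited transcripts of Rgs7bp, Gnao1 and Gnai1 had 5828, 3462 and 3193 bases. The longest coding ones in GENCODE M21 had 7077, 5526 and 3135 bases.

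Gng13 RNA exceeded the RNA of all beta genes together by about the same factor in both pools. The ratio of Gng13 TPM to summed beta TPM was 194 in pool 1 and 192 in pool 2 (193 ± 1.20, SD, n = 2). Against Gnb1 alone it was 201 in pool 1 and 202 in pool 2. The factor depends on the correction for length, since the mean length of Gnb1 transcripts was 2835 bases in pool 1 and 2837 in pool 2. With counts divided by full transcript length it was 151 in pool 1 and 149 in pool 2, and with no length correction it was 21.4 in pool 1 and 20.8 in pool 2. On each of these scales Gng13 exceeded the summed betas in both pools.

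**Figure D3:**
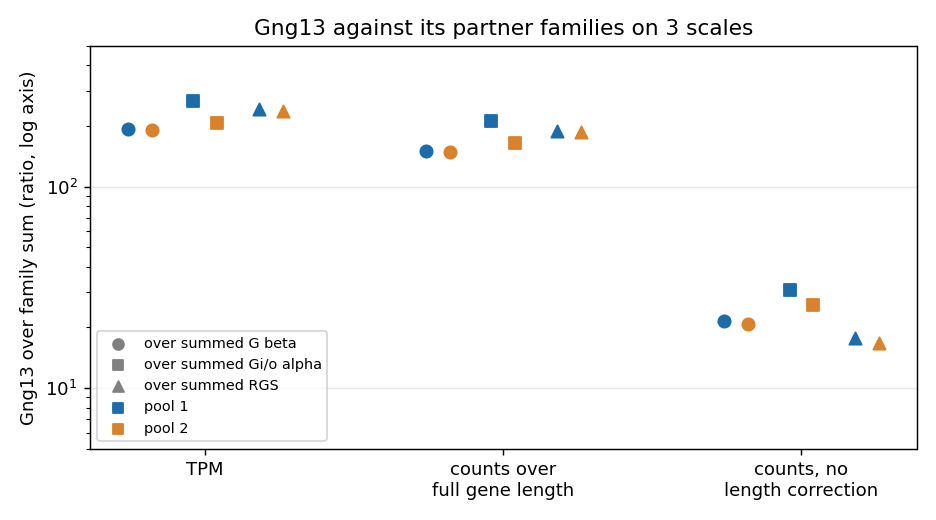
Ratio of Gng13 to the summed beta, Gi/o alpha and RGS genes, on a log axis, with 1 point per pool on 3 scales: TPM, expected counts over full gene length, and expected counts without length correction. In mean over the pools the ratio to the beta genes is 193 in TPM and 21.1 in counts.

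Gnao1 was the highest of the Gi/o alpha genes in both pools. It encodes Go alpha, the main alpha subunit of brain. Gnao1 (ENSMUSG00000031748.11, chr8:93809966-93969388) had 82.53 TPM in pool 1 and 105.80 TPM in pool 2 (mean 94.2 ± 16.5, SD, n = 2), from 9517 and 10685 counts. Gnai1 (ENSMUSG00000057614.5, chr5:18265135-18360355), an inhibitory alpha gene high in brain, had 34.65 TPM in pool 1 and 33.09 TPM in pool 2, from 4354 and 3581 counts. Gnai2 (ENSMUSG00000032562.9, chr9:107614125-107635367), an inhibitory alpha gene widely active in glia and blood cells, had 3.69 TPM in pool 1 and 7.33 TPM in pool 2, from 290 and 487 counts. The order Gnao1, Gnai1, Gnai2 was the same in both pools without overlap. Gnai2 was higher in pool 2, as were the Bergmann glia and astrocyte markers and 6132 of the 8958 genes detected in either pool. The red blood cell markers (2453 TPM in pool 1 and 16.3 TPM in pool 2) were higher in pool 1. The microglial markers were low and split, with a sum of 5.39 TPM in pool 1 and 3.89 TPM in pool 2. Of the 3 that reached 1 TPM in either pool, 2 were higher in pool 1 and 1 in pool 2. The part of these cells in the Gnai2 level was not tested.

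Of the summed TPM of 8 Gi/o alpha genes, Gnao1 held 58.8% in pool 1 and 55.2% in pool 2 (57.0 ± 2.53, SD, n = 2). In reads it held 64.13% in pool 1 (exact 95% binomial interval 63.35 to 64.90) and 67.49% in pool 2 (66.75 to 68.22). With all 8 genes, the pool with the larger share thus differs between the scales. Gnat1, the alpha subunit of rod photoreceptors, had 16.59 TPM in pool 1 and 41.41 TPM in pool 2. It took 11.8% of the family in pool 1 and 21.6% in pool 2 in TPM, and 1.934% in pool 1 and 3.897% in pool 2 in reads. All of its 287 counts in pool 1 and 617 counts in pool 2 lay on Gnat1-204, a non-coding transcript of 525 bases, so no read was assigned to a coding Gnat1 transcript. Without Gnat1, Gnao1 held 66.6% of the summed TPM in pool 1 and 70.4% in pool 2 (68.5% in mean). The larger share in TPM was then in pool 2, as it was in reads. Gnat2 and Gnat3, alpha genes of cones and taste cells, were under a TPM of 1 with 0 counts in both pools.

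The ratio of Gng13 TPM to summed Gi/o alpha TPM was 267 in pool 1 and 206 in pool 2 (237 ± 43.7, SD, n = 2). Against Gnao1 alone it was 455 in pool 1 and 373 in pool 2, and against Gnai1 it was 1084 in pool 1 and 1192 in pool 2. With no length correction the ratio to the summed alphas was 30.7 in pool 1 and 25.9 in pool 2. Of the alpha genes outside the Gi/o group, Gnas, which encodes the stimulatory Gs alpha, was the highest at 490.51 TPM in pool 1 and 473.25 TPM in pool 2. Its level is uncertain, since 74.63% of the 50-base windows of its leading transcript match the antisense gene Gm20721 and the sources used here do not state strand. Gnaq, the alpha subunit that couples glutamate receptors to phospholipase C, had 32.40 TPM in pool 1 and 26.58 TPM in pool 2, just below Gnai1 in both pools.

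Pcp2, the Gi/o-binding regulator, was second to Gng13 among the 10 genes. Its level was 16296 TPM in pool 1 and 17694 TPM in pool 2 (mean 16995 ± 989, SD, n = 2), from 257463 and 241924 counts. It ranked 5 in pool 1 and 6 in pool 2 among nuclear protein-coding genes. Its neighbours by mean TPM were Actb and Pcp4 above, with the values given before, and below it Aldoc, a glycolytic enzyme gene of Purkinje cell bands and astrocytes, at 18131 TPM in pool 1 and 15814 TPM in pool 2, and the metallothionein gene Mt1 at 11406 TPM in pool 1 and 18939 TPM in pool 2. Both pools of Pcp4 lay above Pcp2, and Actb, Aldoc and Mt1 all overlapped it.

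Pcp2 RNA exceeded the RNA of its binding partners on each scale tried. The ratio of Pcp2 TPM to summed Gi/o alpha TPM was 116 in pool 1 and 92.3 in pool 2 (104 ± 16.8, SD, n = 2), and against Gnao1 alone it was 197 in pool 1 and 167 in pool 2. In counts, the ratio to Gnao1 was 27.1 in pool 1 and 22.6 in pool 2. The ratio of Gng13 to Pcp2 was 2.31 in pool 1 and 2.23 in pool 2 in TPM, and 1.77 in pool 1 and 1.69 in pool 2 in counts. Of 7 genes for proteins with a GoLoco motif, 3 reached a TPM of 1 in both pools, against 30.3% of all protein-coding genes. None of the 7 besides Pcp2 had a mean TPM of 10 or more.

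Of the RGS genes, Rgs8 was the highest. It encodes a small RGS protein acting mainly on Gi/o alpha subunits and known for its high RNA level in Purkinje cells. Rgs8 (ENSMUSG00000042671.8, chr1:153653025-153700323) had 98.58 TPM in pool 1 and 111.13 TPM in pool 2 (mean 105 ± 8.87, SD, n = 2). Its 22614 counts in pool 1 and 21880 in pool 2 were more than those of Gnb1 in either pool, though its TPM was lower, and its mean transcript length was 5747 bases in pool 1 and 5728 in pool 2. The ratio of Rgs8 to Gnao1 was 1.19 in pool 1 and 1.05 in pool 2 in TPM. Rgs10, a small RGS protein gene known from brain and microglia, followed at 31.24 TPM in pool 1 and 32.19 TPM in pool 2. Microglial markers summed to 5.39 TPM in pool 1 and 3.89 TPM in pool 2, and their part in the Rgs10 level was not tested. Of 21 RGS genes, 8 reached a TPM of 1 in both pools and 13 stayed under it in both, against 30.3% of all protein-coding genes that reached it. The summed TPM of all 21 was 155 in pool 1 and 165 in pool 2, which Gng13 exceeded 243 times in pool 1 and 238 times in pool 2.

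The complex of an R7 RGS protein, Gnb5 and a membrane anchor was uneven in RNA. Rgs7bp (ENSMUSG00000021719.8, chr13:104945904-105054930), which encodes the palmitoylated anchor of R7 proteins, had 51.83 TPM in pool 1 and 51.44 TPM in pool 2, from 12060 and 10307 counts. Rgs7 (ENSMUSG00000026527.9, chr1:175059087-175492500), an R7 protein gene of neurons, had 10.08 TPM in pool 1 and 9.19 TPM in pool 2, from 886 and 703 counts. The ratio of Rgs7bp to Rgs7 was 5.14 in pool 1 and 5.60 in pool 2 in TPM, and that of Rgs7 to Gnb5 was 7.58 in pool 1 and 12.9 in pool 2. The order anchor, RGS protein, beta subunit was thus the same in both pools, with the limit on Gnb5 given above.

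Of the 9 genes of the R7 complex list, 2 reached a TPM of 1 in both pools, against 30.3% of all protein-coding genes. The 2 were Rgs7 and Rgs7bp. The other R7 protein genes were near 0: Rgs6 had 0.05 TPM in pool 1 and 0.26 TPM in pool 2, and it was named, like the next 2 genes, after its values were seen. Rgs9 had 0.01 TPM in pool 1 and 0.35 TPM in pool 2, and Rgs11 had 0.18 TPM in pool 1 and 0.12 TPM in pool 2. Gpr158, an orphan receptor that binds R7 proteins, had 0.61 TPM in pool 1 and 1.28 TPM in pool 2. The retinal anchor gene Rgs9bp and the retinal receptor gene Gpr179 had 0 counts in both pools.

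The leading transcripts of the 10 genes were the same in both pools. Gng13-201, of 347 bases, held 86.38% of Gng13 TPM in pool 1 and 86.92% in pool 2, and Gng13-202, of 719 bases, held the rest. By reads the share of Gng13-202 was larger, at 28.3% in pool 1 and 27.3% in pool 2. The 2 transcripts share exon 2 (chr17:25718667-25718798) and the start of exon 3 (from 25718927), which hold the whole reading frame. They differ at both ends: exon 1 of Gng13-201 is at 25717528-25717581 and that of Gng13-202 at 25717171-25717277, and exon 3 ends at 25719087 in Gng13-201 and at 25719406 in Gng13-202. Choice of start and 3′ extent therefore cannot be told apart from these shares, and the sequences printed above apply to both forms in their coding part.

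Pcp2 was spread over more forms. Pcp2-203, of 470 bases, held 62.36% of Pcp2 TPM in pool 1 and 56.47% in pool 2. Pcp2-205 held 17.68% in pool 1 and 19.15% in pool 2, and Pcp2-201 held 13.91% in pool 1 and 18.07% in pool 2. Their last 2 exons are shared, at chr8:3624508-3624632 and chr8:3623377-3623558 on the minus strand, and the 5′ ends differ. Exon 1 lies at 3625002-3625049 in Pcp2-203, at 3625210-3625282 in Pcp2-201 and at 3624786-3625002 in Pcp2-205. Pcp2-204, whose exon 1 at 3625470-3625545 is the most upstream and whose reading frame has 411 bases, held 5.43% in pool 1 and 5.66% in pool 2. Pcp2-203 was thus the leading form in both pools, and the form with the longer reading frame of 411 bases stayed near 5.54% in mean.

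**Figure D4:**
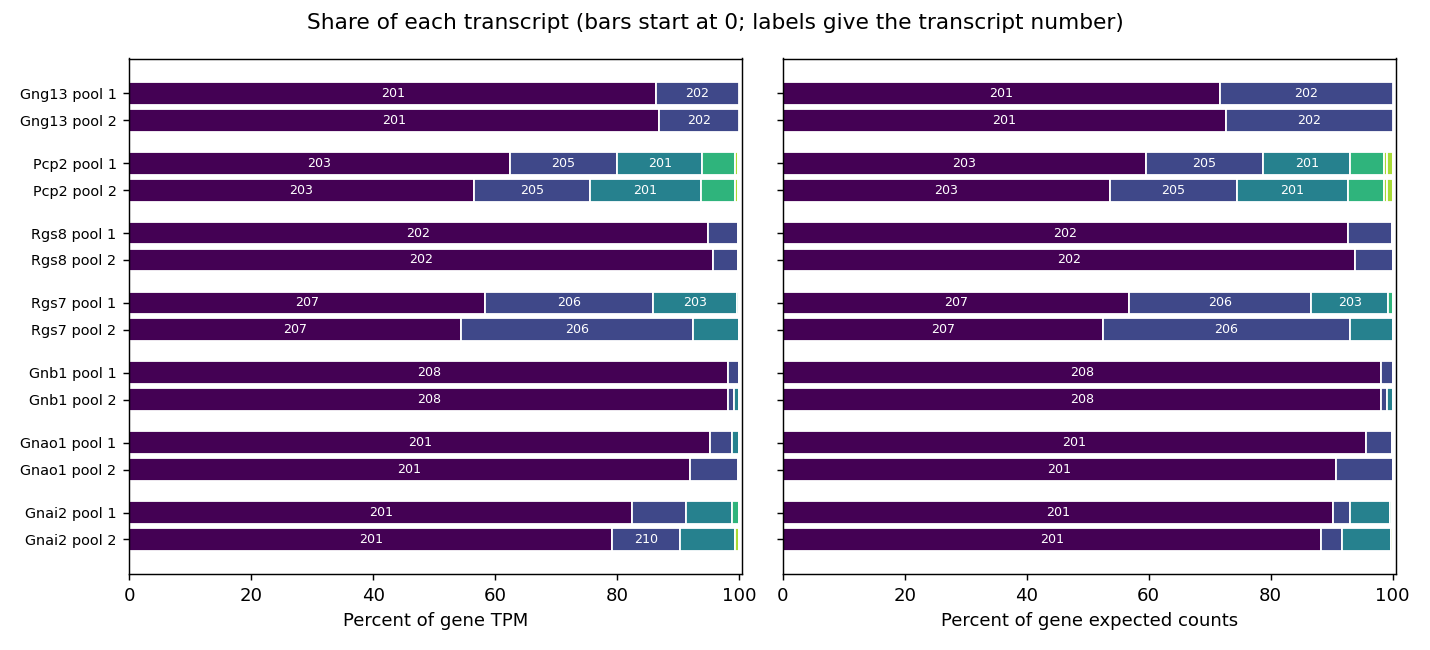
Share of each transcript in the TPM (left) and expected counts (right) of 7 genes that have more than 1 transcript, as stacked bars from 0 to 100% with 1 bar per pool and transcript numbers inside. Gng13-201 takes 86.38% of TPM in pool 1 and 86.92% in pool 2, but 71.7% of counts in pool 1 and 72.7% in pool 2.

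In most of the other genes 1 transcript dominated. Gnb1-208 held 98.18% of Gnb1 TPM in pool 1 and 98.24% in pool 2, and Rgs8-202 held 94.86% of Rgs8 in pool 1 and 95.72% in pool 2. Gnao1-201 held 95.29% of Gnao1 in pool 1 and 91.90% in pool 2. Gnai2-201 held 82.44% of Gnai2 in pool 1 and 79.20% in pool 2. By the posterior mean, a 2nd deposited estimate of the shares, it held 69.37% in pool 1 and 71.01% in pool 2. Rgs7 was the exception, with 58.28% in pool 1 and 54.39% in pool 2 for Rgs7-207, 27.65% in pool 1 and 37.99% in pool 2 for Rgs7-206, and 13.66% in pool 1 and 7.63% in pool 2 for Rgs7-203. Rgs7bp, Gnai1 and Gnb5 have a single transcript in the deposited tables. Splits between similar transcripts are estimates, and no error of the estimate is given here.

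Both leading genes overlap another gene on the opposite strand. Of 773 exonic bases of Gng13, 399 (51.6%) also lie in exons of Chtf18, a replication clamp loader gene, all of them in the last exon. Chtf18 took 379 counts in pool 1 and 351 in pool 2, against 455823 and 409338 for Gng13. Of 1828 exonic bases of Pcp2, 941 (51.5%) also lie in exons of Pet100, a cytochrome oxidase assembly gene, which took 1449 counts in pool 1 and 1845 in pool 2, against 257463 and 241924 for Pcp2. The sources used here do not state whether counting used strand, so reads of the overlaps cannot be told apart. In Gnb1, Gnao1, Gnai1, Gnai2 and Rgs7 the leading transcript shared no 50-base window with another gene.

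Between the pools, 0 of the 10 genes differed by more than 2-fold in TPM + 1, against 10.3% (2.08% higher in pool 1 and 8.22% higher in pool 2) of the 8958 genes that reached 1 TPM in either pool. The median log2 ratio (pool 1 over pool 2) was -0.07 over the 10 genes and -0.24 over all 8958. Of the 10 genes, 4 were higher in pool 1 and 6 in pool 2, against 2805 and 6132 of all 8958. The ratios ran from -0.83 for Gnai2 to 0.45 for Gnb5, within the 5th to 95th percentiles of all genes (-1.16 to 0.69). With counts scaled by TMM the median was 0.21 over the 10 genes and -0.03 over all genes, so the sign of the 10-gene median depends on the scale. On that scale 8 of the 10 were higher in pool 1, all but Gnao1 and Gnai2, and Gnb5 was past 2-fold, at a log2 ratio of 1.17 from 59 counts in pool 1 and 27 in pool 2, against 19.8% of all detected genes. Relative to all genes, the 10-gene median lay toward pool 1 on both scales, as did that of the Purkinje markers (0.13 in TPM + 1, 8 of 9 higher in pool 1). Past 1.5-fold, the set held 1 gene, Gnai2, higher in pool 2, against 32.0% of all detected genes (6.84% higher in pool 1 and 25.1% higher in pool 2). There is 1 library on each side, so these differences have no replicate check.

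**Figure D5:**
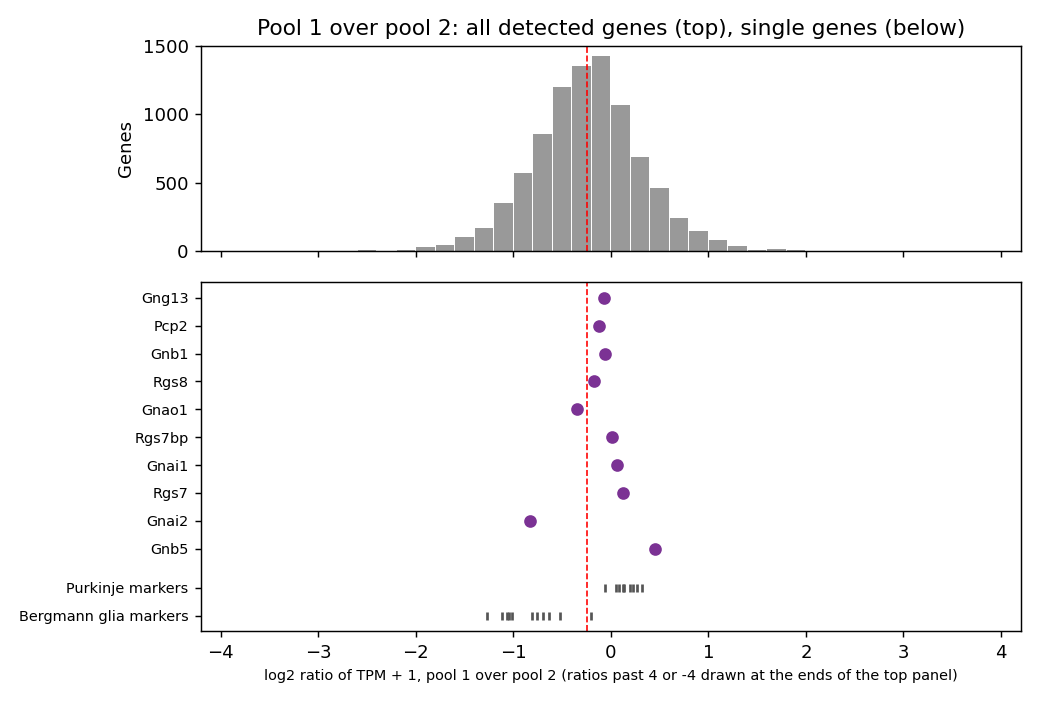
Log2 ratio of TPM + 1, pool 1 over pool 2, for 8958 detected genes (histogram, top) and for the 10 genes and 2 marker lists (bottom); the dashed line is the median of all detected genes at -0.24. The 10 genes lie between -0.83 and 0.45, while all 11 detected Bergmann glia and astrocyte markers lie below 0 with a median of -0.81.

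Of 26 receptor genes known to couple to Gi/o, 7 reached a TPM of 1 in both pools and 17 stayed under it in both, near the share of all protein-coding genes (30.3%). The highest were the 2 subunit genes of the GABA-B receptor, Gabbr1 with 120.06 TPM in pool 1 and 129.74 TPM in pool 2, and Gabbr2 with 58.01 TPM in pool 1 and 52.12 TPM in pool 2. Gabbr1 lay between Gnb1 and Rgs8 in both pools, and Gabbr2 lay between Gnao1 and Rgs7bp. Of 12 genes for G protein-gated potassium channels and adenylyl cyclases, 3 reached a TPM of 1 in both pools, again near that share, and Kcnj3, the channel subunit GIRK1, led with 15.46 TPM in pool 1 and 21.80 TPM in pool 2. Of 9 genes of the Gq pathway, some of them RGS genes already counted above, 8 reached it, against 30.3% of all protein-coding genes. Plcb4, the phospholipase C of the metabotropic glutamate response, led at 35.67 TPM in pool 1 and 54.32 TPM in pool 2.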

How the data were processed

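The deposited gene and transcript tables were made on mouse build mm10 with GENCODE M4, as a text file beside each sample states. No aligner or quantifier is named in the sources used here. The deposited tables, per the file headers, hold expected counts (estimated, not always whole), TPM and FPKM per gene and the percent that each transcript takes of its gene. The authors' effective length was the length minus 99 in 100% of transcripts longer than 99 bases, which raises the TPM of short transcripts. Spike-ins took 0.211% (pool 1) and 0.411% (pool 2) of counts. Rows with numeric identifiers name no gene, took 0.000412% (pool 1) and 0.000194% (pool 2), and were left out.

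GENCODE M21, also on mm10, gave symbols, exons and coordinates, and 42462 of 43346 identifiers matched a symbol. All 60 transcripts of the 10 genes matched by identifier, 56 of them at equal length. A single group allows no contrast, so values are given per pool, as mean ± SD, as ratios and as counts of genes at 1 TPM or more or past 2-fold in TPM + 1 (pseudocount of 1). Alternatives used edgeR 4.0.16 (TMM) and DESeq2 1.42.0 size factors on rounded counts.

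The 10 genes and the 21 lists, 8 of them cell type markers, were chosen with earlier results of these data known. Beyond the 10 genes, the text names up to 4 genes per list with a mean TPM of at least 10, gamma, beta and Gi/o alpha genes that stayed under 1 TPM, the nearest genes in mean TPM to Gng13 and Pcp2, and transcripts down to 10% of a gene's TPM. Other R7 complex genes, Gnat1-204, Pcp2-204 and overlapping genes are named outside that rule.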

Additional observations from a re-analysis of the deposited data

How the results depend on the processing

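No paired analysis was possible because the pools form a single group and no contrast was fitted. With 2 pools, leaving out 1 returns the value of the other, so it adds no check beyond the values per pool. Those were 99.2 to 99.6% for Gng13 among gamma genes, and ratios of 192 to 194 for Gng13 to summed beta genes. The ratios to summed Gi/o alpha genes were 206 to 267 for Gng13 and 92.3 to 116 for Pcp2. Gnao1 held 55.2 to 58.8% among Gi/o alpha genes. With counts and no length correction, these 5 values were 98.4%, 21.1, 28.3, 16.3 and 65.8%. With counts over full length, the ratio of Gng13 was 150 to the beta genes and 189 to the Gi/o alpha genes. The alternatives that leave out transcripts or genes were chosen after seeing the data. With protein-coding transcripts only, the ratio of Gng13 was 198 to the beta genes and 285 to the alpha genes, that of Pcp2 was 125, and Gnao1 held 68.7%. Without Gnat1 the alpha ratios were 283 for Gng13 and 125 for Pcp2, and Gnao1 held 68.5%. Without Gng5, Gng13 held 99.8%. No ratio crossed 1. The count of the 10 genes past 2-fold between pools, 0 in TPM + 1, was 1 with TMM scaling (19.8% of all detected genes), 1 with DESeq2 size factors (19.9%) and 4 with spike-in totals (37.8%), and 1 gene was past 1.5-fold (32.0%). Spike-in scaling moved the median log2 ratio of all genes to 0.74, and 4 of the 10 genes is about the share of all genes on that scale. FPKM and TPM rescaled to nuclear protein-coding genes change the levels of all 10 genes by their construction. Depth limits Gnb5 most, with 59 counts in pool 1 and 27 in pool 2. Any bias of alignment toward the C57BL/6 allele was not tested.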

Other observations

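Of 5 chaperone genes for G protein subunits, 4 reached 1 TPM in both pools, against 30.3% of all protein-coding genes, and Pdcl, which helps beta and gamma subunits to assemble, was the highest at 11.55 TPM in pool 1 and 11.59 TPM in pool 2. Its level was far below that of Gng13 and near that of Rgs7. Of 7 receptor kinase and arrestin genes, which switch off active receptors, 3 reached 1 TPM in both pools, against the same 30.3%, and none had a mean of 10 or more.

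Over all the G protein lists, 60 genes reached 1 TPM in either pool. None of them was past 2-fold higher in pool 1, against 2.08% of all detected genes, and 7 were past 2-fold higher in pool 2, against 8.22% of all detected genes. The 7 were named after their values were seen. They are Gng5, Gng11 and Gnat1, described above, with 4 others. The alpha gene Gna12 had 0.73 TPM in pool 1 and 5.82 TPM in pool 2, and its relative Gna13 had 1.41 TPM in pool 1 and 3.83 TPM in pool 2. The beta gene Gnb4 had 2.16 TPM in pool 1 and 6.96 TPM in pool 2. Gpsm1, a GoLoco protein gene, had 1.5 TPM in pool 1 and 4.94 TPM in pool 2. Bergmann glia and astrocyte markers were higher in pool 2 as well, and their part in these differences was not tested.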
